A study of Mus with 6 samples.

Results

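Chemokine receptors, the surface proteins through which cells sense chemokines, were described in ribosome-bound mRNA that the labels assign to microglia. The set held 7 named receptor genes, Cx3cr1, Ccr1, Ccr2, Ccr6, Cxcr4, Ackr3 and Ccrl2, which were matched by gene symbol, and all 7 were found among the 18887 genes of the deposited table. The study compared 4 immunoprecipitates labelled IRKO, with the genotype given as KO, with 2 labelled MG, with the genotype given as Ctr and called control here. Both groups are RiboTag precipitates, in which ribosomes that carry a tagged protein are pulled down from tissue together with the mRNA they hold, and both came from whole mouse brain. The sources used here do not give strain, age, sex, the driver of the tag and of the deletion, or whether each library came from its own animal. The p-values therefore reflect the spread among these libraries alone, part of which may be technical. No unprecipitated input library was used here. The study's title names loss of insulin signalling in microglia, so the comparison asks how these mRNAs differ on ribosomes when the insulin receptor is deleted.

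Chemokine receptors are membrane proteins of the G-protein-coupled class. Most couple to inhibitory G proteins and steer cell migration towards rising concentrations of their ligand, and arrestins end the signal and take the receptor into the cell. Atypical members bind chemokines or related ligands without classical G-protein signalling and remove or present them instead. In the brain, microglia are known for Cx3cr1, the receptor of the neuronal ligand fractalkine, whereas Ccr2 is known from monocytes that enter from the blood.

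The libraries held 13858978 to 14568773 reads in IRKO samples and 16883098 to 19010680 in controls. Insr, the gene of the insulin receptor, had normalized counts of 290 to 366 in IRKO and 532 to 565 in control libraries (log2 change of −0.70 ± 0.135, SE; limma adjusted p = 0.00211). Markers of homeostatic microglia summed to 293880 to 411550 in IRKO and 112378 to 141798 in control libraries, and 29 of the 30 rose while 1, Mertk, fell. The defining microglial markers P2ry12, Tmem119 and Sall1 were read in every library. Markers of astrocytes summed to 33083 to 43310 in IRKO and 559154 to 692991 in control libraries, and 20 of 20 fell. In control libraries these sums exceeded the microglial ones although the label names microglia. The lists hold different genes, uncorrected for transcript length, so the sums do not rank the cell types. Neuronal markers summed to 89277 to 112669 in IRKO and 48760 to 61992 in control libraries. Liver and blood markers summed to 2815 to 12529 in IRKO libraries, against 79776 in control replicate 1 and 239113 in control replicate 2, and 12 of 13 fell. In such bulk precipitates, a difference in the number of cells of a type and a difference in RNA per cell cannot be told apart. The part of these shifts in marker levels in the receptor results was not tested, and the receptors are therefore also given relative to the microglial and neuronal lists further on.

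Values are reads per gene divided by 1 size factor per library, called normalized counts, and changes are IRKO minus control on the scale of log2(normalized count + 1), which understates the change of genes with low counts. A gene was called when its Benjamini-Hochberg adjusted p, taken over the 14698 genes that reached 10 in 2 or more libraries, was under 0.05. All 7 receptors passed this filter, Ccr1 and Ccr6 only through IRKO libraries. Of the 7, 4 rose (Cx3cr1, Ccr1, Ccr6 and Ccrl2), 0 fell and 3 were not called. Across all tested genes, limma called 55.6% in either direction, 26.6% higher and 29.0% lower. The members' median log2 change was 0.79, against 0.02 over all tested genes. All 4 IRKO values lay above both control values for 4 of the 7 receptors, against 32.8% of tested genes, and all lay below for 0 of the 7, against 34.8%. Ccr6 was among these 4 only because IRKO replicate 3, with 7 reads, lay just above control replicate 1, with 6. Because Ccr1 and Ccr6 passed the filter only through IRKO libraries, a rise was nearly the only call open to them. Apart from them, the counts of rises and of values above both controls rest on Cx3cr1 and Ccrl2. With edgeR on the recovered reads, which called 54.9% of genes, 3 of the 7 were called and Ccrl2 was not (adjusted p = 0.0519).

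**Figure D1:**
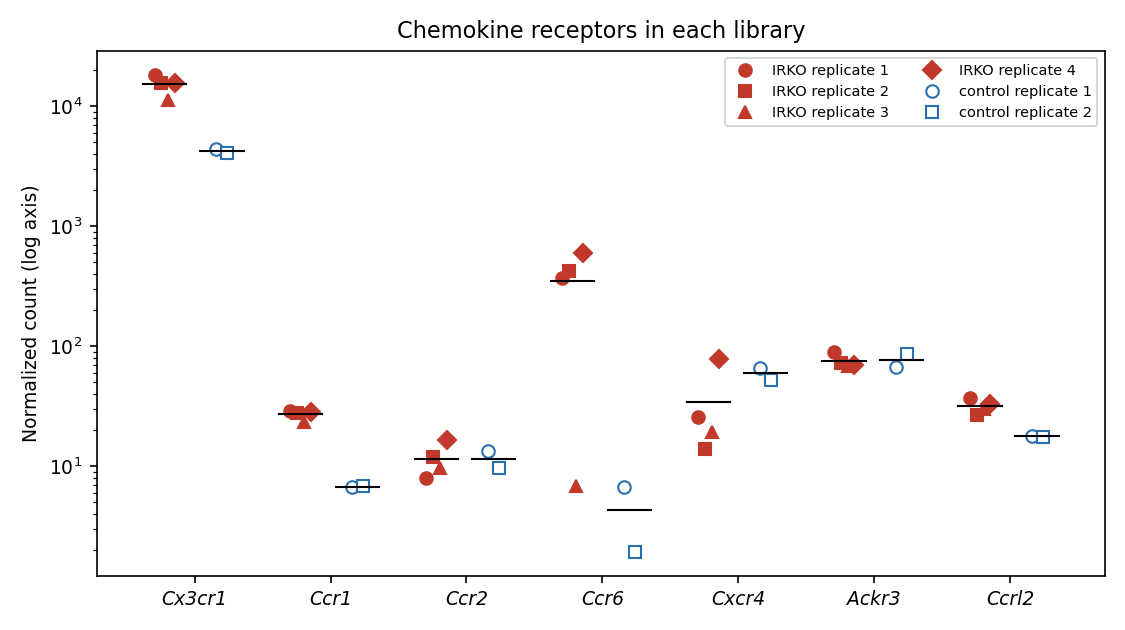
Normalized count (log axis) of the 7 chemokine receptors in each library, with 4 IRKO libraries (filled) left of 2 control libraries (open) for each gene and bars at the group means. Cx3cr1, Ccr1 and Ccrl2 are higher in each IRKO library than in either control, Ccr6 is far higher in IRKO replicates 1, 2 and 4 but not in replicate 3, and Ccr2, Cxcr4 and Ackr3 overlap between groups.

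Cx3cr1, the fractalkine receptor through which microglia sense neurons, rose. It lies on chromosome 9 at 120048683 to 120068296 (GRCm38.p6). Its normalized counts were 18263, 15586, 11276 and 15402 in IRKO replicates 1 to 4, against 4365 and 4057 in control replicates 1 and 2. The lowest IRKO library, replicate 3, was still above both controls, and the groups did not overlap. The means were 15132 ± 2884 in IRKO (SD, n = 4) and 4211 ± 218 in control libraries (SD, n = 2), a ratio of 3.59. The log2 change was 1.82 ± 0.186 (SE, 95% interval 1.40 to 2.25; limma adjusted p = 5.35e-05), rank 243 from the top among 14698 tested genes. Of the 30 microglial markers, 6 had a larger rise. IRKO replicate 3, the lowest for Cx3cr1, was also the IRKO library with the lowest summed microglial markers, 293880. The SD of Cx3cr1 over the IRKO libraries on the log2 scale was 0.29, and 0.13 after the mean log2 level of the microglial markers was subtracted in each library. After that subtraction, Cx3cr1 stood at 1.64, 1.40, 1.35 and 1.36 log2 units above the markers' mean in IRKO replicates 1 to 4, against 1.00 and 1.22 in control replicates 1 and 2.

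Ccr1, a receptor for inflammatory CC chemokines such as Ccl3 and Ccl5, rose as well, on far fewer reads. Its gene is on chromosome 9 at 123962126 to 123968692. The normalized counts were 28.7, 27.6, 23.3 and 28.2 in IRKO replicates 1 to 4, against 6.75 and 6.78 in control replicates 1 and 2. These rest on 24 to 29 reads in each IRKO library and on 6 and 7 reads in the control libraries. The IRKO values were all above both controls. The 95% exact Poisson interval, which covers counting error only, ran from 14.9 to 34.7 normalized counts in IRKO replicate 3, the lowest. It ran from 2.48 to 14.7 in control replicate 1 and from 2.72 to 14.0 in control replicate 2. The log2 change was 1.84 ± 0.342 (SE, 95% interval 1.07 to 2.62; limma adjusted p = 0.00166), and the ratio of means was 3.99.

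Ccrl2, an atypical receptor that binds chemerin and presents it to cells that carry the chemerin receptor Cmklr1, was also higher. Its gene is on chromosome 9 at 111054834 to 111057518. The normalized counts were 36.7, 26.6, 30.1 and 33.1 in IRKO replicates 1 to 4, against 18.0 and 17.4 in control replicates 1 and 2. The groups did not overlap. The log2 change was 0.79 ± 0.297 (SE, 95% interval 0.12 to 1.46; limma adjusted p = 0.0461). This call was lost when any 1 of the 6 libraries was left out, with adjusted p-values of 0.0566 to 0.118. Of its neighbours in the table, Ltf on one side (4 to 7 reads per IRKO library, 12 and 18 per control) and Lrrfip2 on the other had log2 changes of −1.38 ± 0.519 (SE, adjusted p = 0.0472) and −0.45 ± 0.170 (SE, adjusted p = 0.0459) with limma.

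Ccr6, the receptor of Ccl20 and best known from B cells and T helper cells, divided the IRKO libraries. Its gene is on chromosome 17 at 8236041 to 8258519. The normalized counts were 370, 421, 6.80 and 601 in IRKO replicates 1 to 4, against 6.75 and 1.94 in control replicates 1 and 2. In reads, IRKO replicates 1, 2 and 4 held 374, 427 and 617, whereas replicate 3 held 7 and the control libraries held 6 and 2. IRKO replicate 3 thus lay with the controls, above the higher control by less than the value of 1 read. Its 95% exact Poisson interval, which covers counting error only, ran from 2.73 to 14.0 normalized counts, against 2.48 to 14.7 in control replicate 1 and 0.235 to 7.0 in control replicate 2.

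Over all 6 libraries, the log2 change of Ccr6 was 5.11 ± 1.51 (SE, 95% interval 1.71 to 8.51; limma adjusted p = 0.0173), rank 5 among the rises. The SD of its IRKO values on the log2 scale was 2.95, rank 9 of 14698 genes, whose median was 0.19. Without IRKO replicate 3 the log2 change was 6.58 (limma adjusted p = 1.10e-05). The call was lost without control replicate 1 (5.81, adjusted p = 0.0624) and without control replicate 2 (4.41, adjusted p = 0.131). A count that calls Ccr6 higher in all 4 IRKO libraries therefore rests on 7 reads in replicate 3 against 6 in control replicate 1.

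Neither gene beside Ccr6 fell to near 0 in IRKO replicate 3. Rnaset2a, the nearest gene of the table on one side at a distance of 87.8 kb, had normalized counts of 4737, 3358, 2352 and 4282 in IRKO replicates 1 to 4, against 2036 and 2654 in control replicates 1 and 2. Its groups overlapped through IRKO replicate 3, and it was not called (log2 change 0.61 ± 0.256, SE; limma adjusted p = 0.0668). Mpc1, a subunit of the mitochondrial pyruvate carrier 25.3 kb away on the other side, had 1847, 1760, 1836 and 1318 in IRKO replicates 1 to 4, against 3357 and 3574 in control replicates 1 and 2. It fell, by 1.05 on the log2 scale (SE 0.152; limma adjusted p = 0.000416), and IRKO replicate 3 did not stand apart for it.

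**Figure D2:**
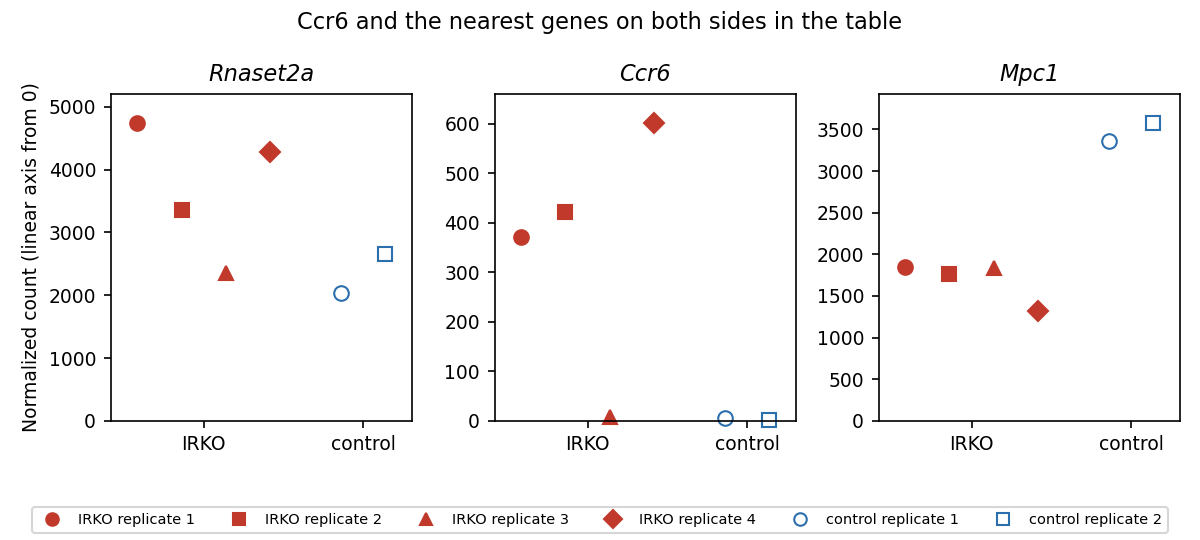
Normalized counts (linear axes from 0, 1 scale per panel) of Ccr6 and of the nearest genes on both sides in the table, in 4 IRKO libraries (filled) and 2 control libraries (open). For Ccr6, IRKO replicate 3 lies with the controls near 0 while the other IRKO libraries lie between 370 and 601; for Mpc1 all IRKO libraries lie below both controls.

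Lymphocyte markers were set beside Ccr6 because lymphocytes carry this receptor. Their summed normalized count was 387, 355, 490 and 539 in IRKO replicates 1 to 4, against 337 and 320 in control replicates 1 and 2. In IRKO replicate 3, 140 of this sum came from Cd79b and 144 from Il7r, both described below. Of the 15 markers in the table, 5, 5, 4 and 1 were at 0 in IRKO replicates 1 to 4, against 2 in each control. The B-cell marker Ms4a1 had 0 reads in every IRKO library, and the T-cell marker Cd3g had 0 reads in IRKO replicates 1, 2 and 3. Of the 6 lymphocyte markers tested, 2 rose, 1 fell and 3 were not called. Their log2 changes ran from −2.25 to 3.07, with a median of 0.29. With the libraries scaled to the microglial markers, as described further on, 1 was higher and 4 were lower, with a median of −1.17. As deposited, the B-cell receptor component Cd79b had 113, 124, 140 and 132 in IRKO replicates 1 to 4, against 49.5 and 33.9 in control replicates 1 and 2. It rose (log2 change 1.61 ± 0.215, SE; limma adjusted p = 0.000266), near the microglial markers' median of 1.63. Il7r, the interleukin-7 receptor, rose too, at 41.6, 64.1, 144 and 160 in IRKO replicates 1 to 4, against 15.7 and 5.81 in control replicates 1 and 2 (log2 change 3.07 ± 0.575, SE; limma adjusted p = 0.00177). The part of these markers in the Ccr6 result was not tested.

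Ccr2, the Ccl2 receptor that draws monocytes from the blood, was read at low level in both groups. Its gene is on chromosome 9 at 124101918 to 124109140. The normalized counts were 7.92, 11.8, 9.72 and 16.6 in IRKO replicates 1 to 4, against 13.5 and 9.68 in control replicates 1 and 2. The groups overlapped, with IRKO libraries holding both the lowest and the highest value. The log2 change was −0.04 ± 0.462 (SE; limma adjusted p = 0.949), with a 95% interval of −1.08 to 1.00. With 8 to 17 reads per library in 4 IRKO and 2 control libraries, a difference within that interval was not excluded.

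How reads shared by close paralogues of the CC receptor cluster on chromosome 9, or by genes on opposite strands, were counted is not stated in those sources, and the few reads of Ccr1, Ccr2, Ccr3 and Ccr1l1 are uncertain for that reason. Markers of monocytes and border macrophages summed to 742 to 2916 in IRKO and 377 to 566 in control libraries. Of the 10 tested, 5 rose, 0 fell and 5 were not called. The rises were in the mannose receptor Mrc1 (log2 change 2.06 ± 0.308, SE), Cd163 (1.21 ± 0.386, SE), Itga4 (1.26 ± 0.279, SE), Fn1 (1.92 ± 0.574, SE) and Vcan (1.49 ± 0.562, SE). These calls are as deposited, and the log2 changes of the 10 tested ran from −2.14 to 2.06, with a median of 0.76. Without IRKO replicate 3, 4 were called higher and 2 lower. With the libraries scaled to the microglial markers, as described further on, 0 were higher and 4 lower, with a median of −0.65. Scaled to the neuronal markers, 1 was higher and 2 were lower. The highest sum, in IRKO replicate 3, was carried by the matrix genes Fn1 at 2142 and Vcan at 422. The monocyte marker Ly6c2 was not tested, with 0, 2, 0 and 3 reads in IRKO replicates 1 to 4 and 4 reads in each control. The part of these markers in the Ccr2 result was not tested.

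Cxcr4, the receptor through which Cxcl12 guides and retains many cell types, was low in 3 of 4 IRKO libraries. Its gene is on chromosome 1 at 128588199 to 128592299. The normalized counts were 25.8, 13.8, 19.4 and 78.9 in IRKO replicates 1 to 4, against 66.4 and 52.3 in control replicates 1 and 2. IRKO replicates 1, 2 and 3 lay below both controls, and replicate 4 lay above both. The log2 change was −1.08 ± 0.583 (SE, 95% interval −2.40 to 0.24; limma adjusted p = 0.143), which was not called. Without IRKO replicate 4 it was −1.58 (limma adjusted p = 0.00797), the only call among the 6 fits with 1 library left out. Markers of neutrophils, cells that carry Cxcr4, summed to 40.6, 96.6, 46.6 and 60.4 in IRKO replicates 1 to 4, against 445 and 155 in control replicates 1 and 2. Their part in the Cxcr4 result was not tested.

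Ackr3, the atypical receptor that binds Cxcl12 and takes it out of the extracellular space, was not called. Its gene is on chromosome 1 at 90203980 to 90215724. The normalized counts were 90.1, 72.0, 69.0 and 70.1 in IRKO replicates 1 to 4, against 67.5 and 86.2 in control replicates 1 and 2. The groups overlapped. The log2 change was −0.03 ± 0.216 (SE, 95% interval −0.51 to 0.46; limma adjusted p = 0.925).

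The zero point of these changes, and with it the calls, moved with what the libraries were scaled to. When each library was scaled to its mean log2 level of the homeostatic microglial markers, the median of all tested genes moved to −1.47, and limma called 0.381% of genes higher and 80.8% lower. On this scale Ccr6 remained higher, by 3.81 (adjusted p = 0.000261). With the markers' mean subtracted after the log2 step instead, as for Cx3cr1 above, the difference for Ccr6 was 3.61 and its groups overlapped. Relative to that mean, IRKO replicate 3 stood at −9.14 log2 units, against −8.14 and −9.21 in control replicates 1 and 2. IRKO replicates 1, 2 and 4 stood at −3.98, −3.81 and −3.32. In the scaled fit, the smaller adjusted p than as deposited (0.0173) came with a smaller SE, 0.87 against 1.51. With the subtraction, the SD of the IRKO libraries moved only from 2.95 to 2.74. In the scaled fit Cxcr4, Ackr3 and Ccr2 were lower, at −2.54 (adjusted p = 2.48e-05), −1.51 (adjusted p = 0.000138) and −1.43 (adjusted p = 0.0267). Cx3cr1 stood at 0.33 (adjusted p = 0.246), Ccr1 at 0.46 (adjusted p = 0.391) and Ccrl2 at −0.65 (adjusted p = 0.168), none of them called. For Cx3cr1, the 95% interval of −0.21 to 0.86 includes no difference relative to the microglial markers.

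When the libraries were scaled to neuronal markers instead, the median of all genes moved to −0.87. Cx3cr1 (0.93, adjusted p = 0.00223) and Ccr6 (4.34, adjusted p = 0.00456) were then called higher. Cxcr4 (−1.95, adjusted p = 0.00598) and Ackr3 (−0.91, adjusted p = 0.0118) were called lower, and Ccr1, Ccr2 and Ccrl2 were not called. Relative to the all-gene median of each scaling, Ackr3 therefore stayed near that median, at −0.03 against 0.02 as deposited and −1.51 against −1.47 under microglial scaling. Ccr2 also stayed near it, at −0.04 as deposited, −0.86 under neuronal and −1.43 under microglial scaling.

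**Figure D3:**
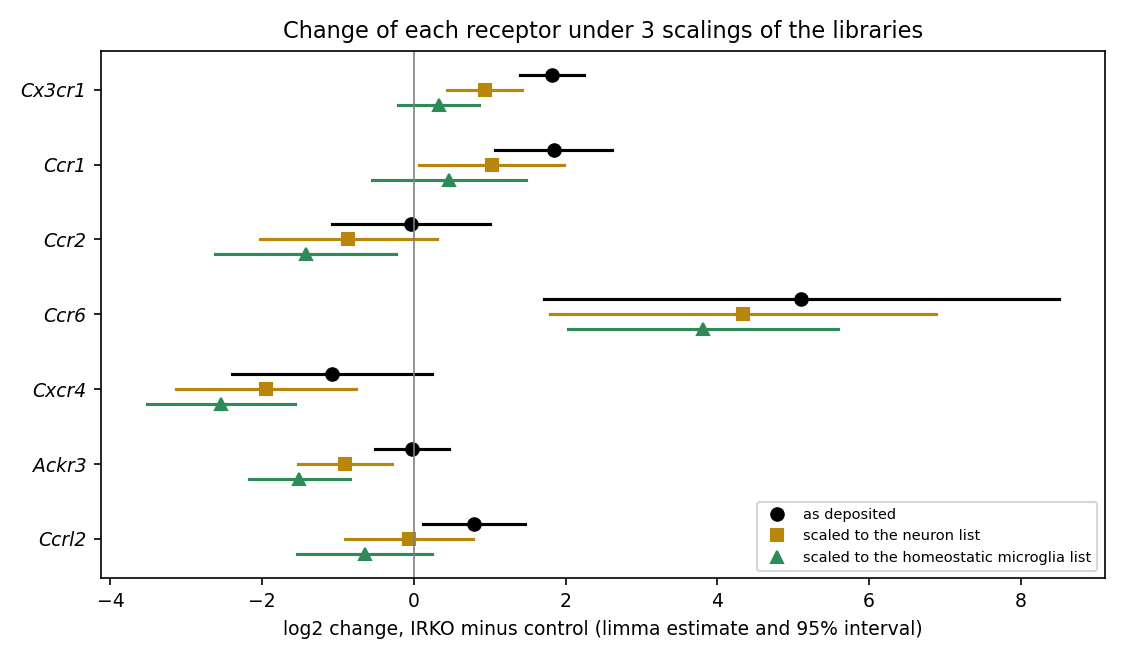
Log2 change of each of the 7 receptors, IRKO minus control (limma estimate with 95% interval), as deposited and after the libraries were scaled to neuronal or microglial markers. Ccr6 stays above 0 under all 3, Cx3cr1 and Ccr1 move towards 0, Ccrl2 changes sign, and Cxcr4 and Ackr3 move further below 0.

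The receptors also differed in which genes shared their profile over the 6 libraries. The genes most like Cx3cr1 by Pearson correlation of log2(normalized count + 1) were P2ry6 (r = 0.999) and F11r (0.999), and 969 tested genes reached 0.95. For Ccr1 they were Arhgap25, Rab27a and Pcgf6 (0.999 each, 1215 genes at 0.95 or more), and for Ccrl2 they were Ddx31 (0.996) and Cyp1b1 (0.995), with 252 such genes. Fewer genes followed the others. Ccr6 was most like Nfatc1 (0.990), Prdm10 (0.987) and Cd164 (0.985), with 65 genes at 0.95 or more. Nfatc1 had a far smaller spread, at 444, 481, 320 and 475 in IRKO replicates 1 to 4 and 299 and 263 in control replicates 1 and 2, again lowest in IRKO replicate 3 among IRKO libraries. Cxcr4 was most like Cux1 (0.988), Pnp (0.982) and Wdr36 (0.976), with 22 such genes. Ccr2 was most like Nrd1 (0.993), Kansl1l (0.979) and Gab1 (0.970), with 11. Ackr3 was most like Suco (0.975), Armc1 (0.974) and Oser1 (0.967), with 8. These points share their libraries and their size factors, and the correlations are given as a description.

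Of the 24 chemokine receptor genes in the table, 17 lay outside the set, and 4 of these passed the filter. The other 13 reached at most 8.92 normalized counts in any library, and Ccr8 and Cxcr5 had 0 reads in all 6, which allows up to 2.90 to 3.37 normalized counts per library (3 reads, counting error only). Of the 4 tested, 3 rose, 0 fell and Ackr2, an atypical scavenger of inflammatory CC chemokines, was not called, with a median log2 change of 1.21 as deposited, 0.32 under neuronal and −0.28 under microglial scaling. The rises included Cxcr2, a receptor best known from neutrophils, and Ackr1, an atypical receptor that binds many inflammatory chemokines. Cxcr2 had normalized counts of 150, 163, 154 and 127 in IRKO replicates 1 to 4, against 67.5 and 41.6 in control replicates 1 and 2 (log2 change 1.46 ± 0.227, SE). Ackr1 had 512, 583, 555 and 476 in IRKO replicates 1 to 4, against 236 and 314 in control replicates 1 and 2 (log2 change 0.96 ± 0.152, SE). Both showed no overlap between groups as deposited, with all IRKO values above both control values, as for 32.8% of all tested genes. Under microglial scaling Cxcr2 stood at −0.02 and Ackr1 at −0.54, and neither was called. Of the 4 neutrophil markers tested, 0 rose and 3 fell, with a median log2 change of −1.98. The neutrophil sum differed between the controls, at 445 in replicate 1 and 155 in replicate 2. Without control replicate 1 the median was −1.40. The part of these markers in the Cxcr2 result was not tested.

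**Figure D4:**
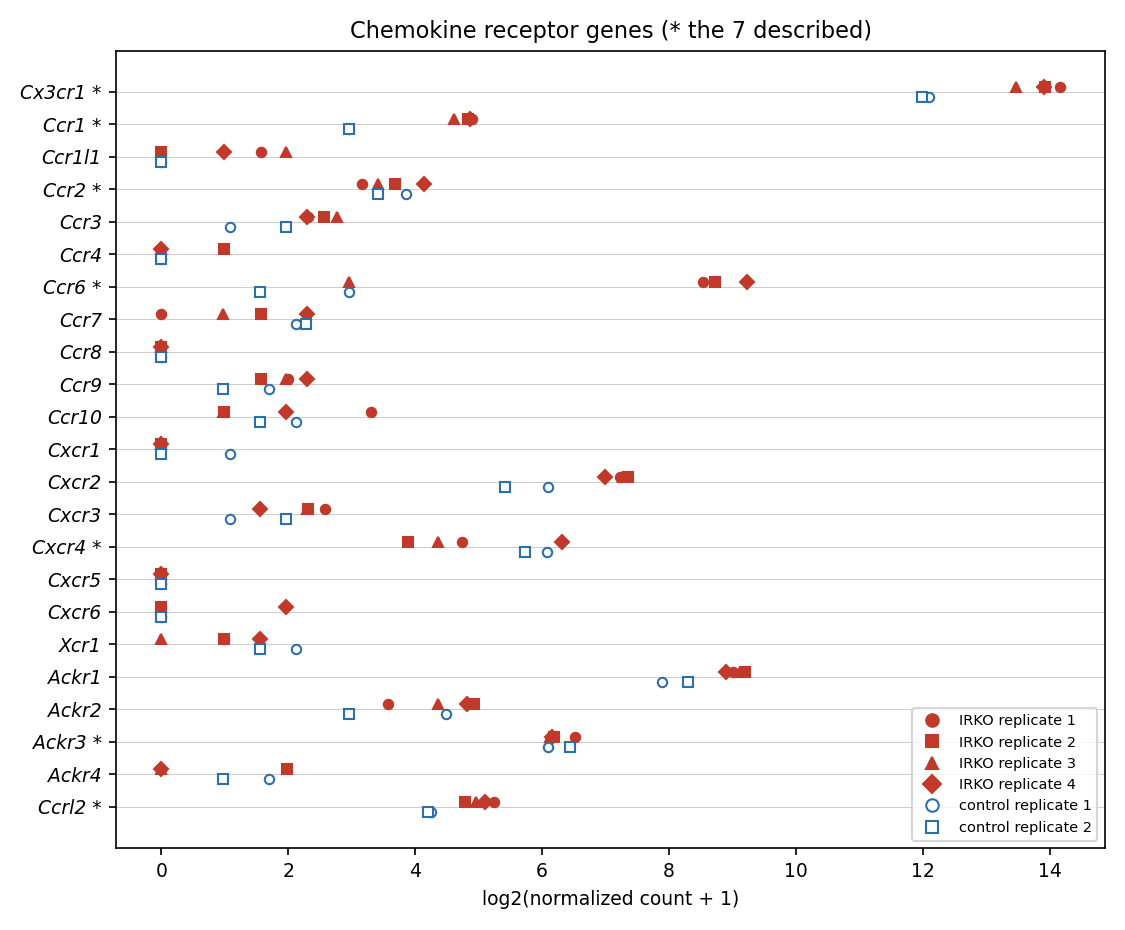
Level of chemokine receptor genes as log2(normalized count + 1) in 4 IRKO (filled) and 2 control (open) libraries, with the 7 described marked by an asterisk. Levels of different genes are not corrected for transcript length and are not to be compared with each other; 13 of the unmarked genes stay near the floor, and Cxcr2 and Ackr1 are higher in every IRKO library.

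Ligands of the receptors were tested from a list of 16 genes, of which 15 were in the table and 12 passed the filter. As deposited, 7 rose, 2 fell and 3 were not called, with a median log2 change of 1.10, against 0.24 under neuronal and −0.34 under microglial scaling. Ccl6 (1.49 ± 0.193, SE) and Ccl9 (1.30 ± 0.205, SE), which bind Ccr1, rose, as did Ccl12 (1.56 ± 0.298, SE), a mouse ligand of Ccr2. Under microglial scaling these 3 stood at −0.0030, −0.20 and 0.079 in that order, and none was called. Cxcl12, the shared ligand of Cxcr4 and Ackr3, had normalized counts of 1013, 513, 845 and 616 in IRKO replicates 1 to 4, against 242 and 267 in control replicates 1 and 2. Its log2 change was 1.50 ± 0.246 (SE; limma adjusted p = 0.000833) as deposited and 0.00 under microglial scaling. Its groups did not overlap as deposited, whereas those of Cxcr4 did. All IRKO values lay above both control values for 32.8% of all tested genes. Both falls were in Rarres2, which encodes chemerin, and Mif, an inflammatory cytokine that also binds Cxcr4. Rarres2 had 111, 94.6, 99.1 and 82.8 in IRKO replicates 1 to 4, against 676 and 688 in control replicates 1 and 2 (log2 change −2.81 ± 0.161, SE; limma adjusted p = 1.47e-06). Mif had a log2 change of −0.64 ± 0.142 (SE; limma adjusted p = 0.00448). Ccl20, the ligand of Ccr6, had 1 read in all, in IRKO replicate 2. Cx3cl1, which encodes fractalkine, was outside the naming rule and was chosen after its values were seen. It had 5387, 6084, 5797 and 5009 in IRKO replicates 1 to 4, against 3017 and 4175 in control replicates 1 and 2. Its log2 change was 0.65 ± 0.153 (SE; limma adjusted p = 0.00608) as deposited, −0.25 under neuronal and −0.85 under microglial scaling.

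Other chemoattractant receptors were tested from a list of 12, of which 9 passed the filter. As deposited, 7 rose, 1 fell and 1 was not called, with a median of 1.51, against 0.63 under neuronal and 0.02 under microglial scaling. The purine receptors P2ry12 (1.78 ± 0.183, SE) and P2ry6 (1.70 ± 0.165, SE), through which microglia sense nucleotides, were among the rises, and P2ry12 was also one of the microglial markers. Cmklr1, the signalling receptor of chemerin, had 897, 890, 609 and 973 in IRKO replicates 1 to 4, against 261 and 274 in control replicates 1 and 2 (log2 change 1.63 ± 0.183, SE). The complement receptor C3ar1 had a log2 change of 1.48 ± 0.175 (SE). S1pr1, a sphingosine-1-phosphate receptor that astrocytes also carry, fell to 918 to 1326 in IRKO libraries, against 11771 and 13153 in control libraries (log2 change −3.48 ± 0.149, SE). Its fall accompanied that of the astrocyte markers, and their part in it was not tested. Under microglial scaling, P2ry12 (0.28), P2ry6 (0.20), Cmklr1 (0.13) and C3ar1 (−0.01) were not called, and S1pr1 stood at −4.97 (limma adjusted p = 1.05e-15).

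The machinery downstream of the receptors was tested from a list of 37 symbols, of which 35 were in the table and 34 passed the filter. As deposited, 21 rose, 7 fell and 6 were not called, with a median of 1.12, against 0.23 under neuronal and −0.38 under microglial scaling. Gng2, a G-protein gamma subunit, had 2075, 2237, 2166 and 2103 in IRKO replicates 1 to 4, against 871 and 943 in control replicates 1 and 2 (log2 change 1.24 ± 0.102, SE). Pik3r6, a regulatory subunit of the phosphoinositide 3-kinase that G-protein beta-gamma subunits activate, had 165, 154, 134 and 144 in IRKO replicates 1 to 4, against 36.0 and 32.9 in control replicates 1 and 2 (log2 change 2.08 ± 0.185, SE). Vav1, an exchange factor for Rac (1.82 ± 0.155, SE), and Elmo1, a partner of Dock exchange factors (1.29 ± 0.115, SE), rose as well. For these 4 genes the IRKO and control values did not overlap. They were picked for the smallest p among the list's rises, a choice that favours such genes. Of all tested genes, 32.8% had all IRKO values above both control values.

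Arrb1, which encodes beta-arrestin 1, had 3675, 3732, 3747 and 3777 in IRKO replicates 1 to 4, against 8570 and 7378 in control replicates 1 and 2. It fell, with a log2 change of −1.09 ± 0.112 (SE). Plcb3, a phospholipase C that G proteins activate, also fell, with −1.43 ± 0.159 (SE). Under microglial scaling Pik3r6 (0.61), Vav1 (0.32), Gng2 (−0.26) and Elmo1 (−0.21) were not called, whereas Arrb1 (−2.59) and Plcb3 (−2.93) remained lower, on a scale whose all-gene median was −1.47.

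**Figure D5:**
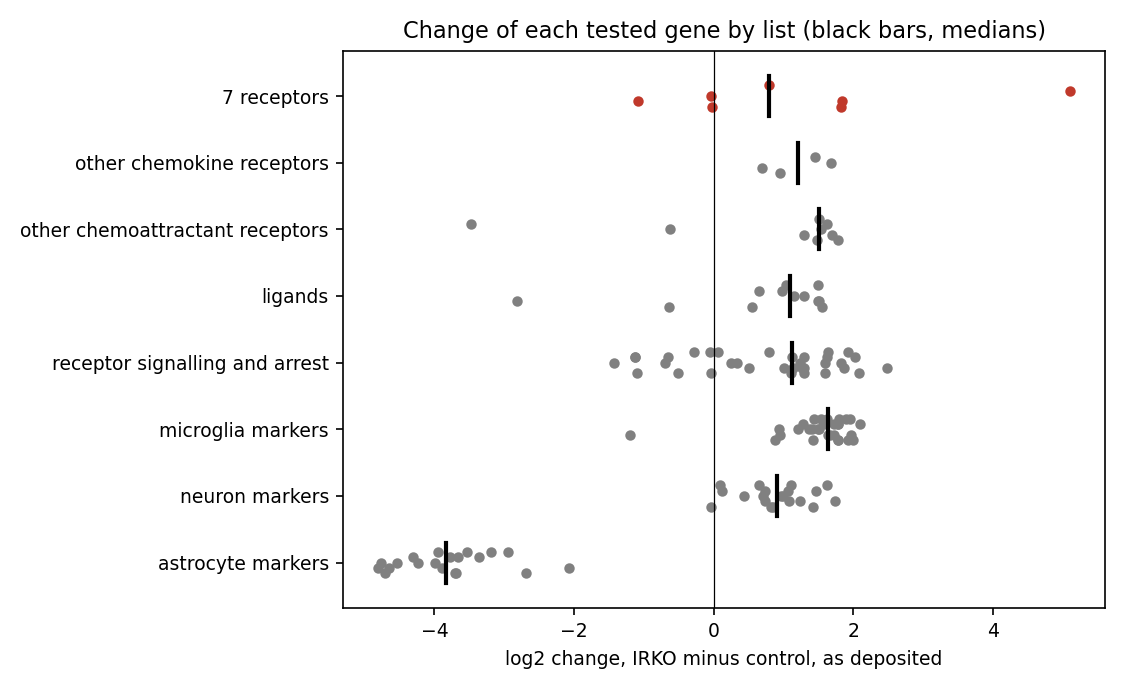
Log2 change of each tested gene, IRKO minus control as deposited, for the 7 receptors, their family, other chemoattractant receptors, ligands, downstream genes and 3 marker lists, with black bars at the medians. The receptor medians (0.79 and 1.21) lie below that of the microglial markers (1.63), and all 20 astrocyte markers lie below 0.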

How the data were processed

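RNA bound to ribosomes was sequenced in 4 IRKO and 2 control precipitates. Reads were handled with Bowtie2 and the build GRCm38.p6, per the submitters' processing notes, while for the counter, annotation, strand setting and normalization software nothing is given in the sources used here. Deposited by the authors was a signal per gene, reads divided by 1 size factor per library, per the file headers and the values: 100% came out as whole reads within a tolerance of 0.05 reads. In IRKO replicate 1 a single read was worth 0.991, too near 1 to tell from rounding, so the count tests were also run on the other 5 libraries, an alternative chosen after seeing the data. The chi-square per degree of freedom between libraries of 1 group was 16.8 to 36.9, so none was treated as a duplicate.

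Genes with at least 10 in at least 2 libraries were kept (14698 of 18887), transformed as log2(value + 1), and fitted over all 6 libraries with limma 3.58.1 (mean-variance trend, R 4.3.3), with two-sided p-values adjusted by Benjamini-Hochberg over all tested genes and a threshold of 0.05. The scripts were tested on simulated data. Coordinates came from a RefSeq table of GRCm38.p6, in which 18542 of the 18887 symbols were found. Alternatives were pseudocounts of 0.5 and 5, no filter or a filter at 50, TMM and quantile normalization, scaling to marker lists, no variance trend, a replicate block, each library left out, and count tests of the recovered reads with DESeq2 1.42.0 and edgeR 4.0.16. Named were all 7 receptors, from each list the genes of smallest p (up to 4 in the direction with more calls, up to 2 in the opposite one), the 3 genes most like each receptor without predicted genes, chromosomal neighbours and Insr. Some genes that this rule picks are not reported here, though list counts and medians include them. The members and lists were chosen with earlier results of these data known. Intervals and floors cover counting error only. No sequence or transcript length was used, so levels are not compared between genes.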

Additional observations from a re-analysis of the deposited data

Results flagged for a closer look

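Among 48 genes whose 4 IRKO values were checked for a single library far from the others, 3 were set apart, where chance sets apart about 1 in 20. The gap between the extreme library and its nearest neighbour, as a share of the group's range on the log2 scale, was compared with the critical value of 0.829. Ccr6 had IRKO replicate 3 lowest, with a share of 0.889. Ackr3 had IRKO replicate 1 highest, with 0.842. Vav1 had IRKO replicate 3 lowest, with 0.910.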

How the results depend on the processing

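The 6 libraries and the few reads of Ccr1, Ccr2 and Ccrl2 limit precision. Pseudocounts, TMM scaling and the fit without a variance trend changed no receptor's call. Scaling to the microglial list gave 0.33 for Cx3cr1, 0.46 for Ccr1, −1.43 for Ccr2, −0.65 for Ccrl2, −2.54 for Cxcr4 and −1.51 for Ackr3, and scaling to the neuronal list gave 1.03 for Ccr1, −0.063 for Ccrl2, −1.95 for Cxcr4 and −0.91 for Ackr3. Receptors called numbered 1 higher and 3 lower under microglial and 2 and 2 under neuronal scaling, and over all genes 56 higher and 11880 lower, and 415 and 9067. Under microglial scaling the calls were 0 higher for other chemokine receptors, 0 and 2 lower for chemoattractant receptors, 0 and 3 for ligands, and 1 and 15 for downstream genes. Under neuronal scaling they were 1 higher, 4 and 2, 1 and 2, and 10 and 13. The scaled fits move the zero point by construction. Quantile normalization turned 47.9% higher among all calls into 56.0%, and left 1 ligand lower. A filter at 50 removed Ccr1, Ccr2 and Ccrl2 and left 2 receptors higher. Ccrl2 lost its call with no filter (0.79), quantile normalization (0.65), edgeR (0.84), DESeq2 (0.84) and on 5 libraries (edgeR 0.78, DESeq2 0.77). Ccr2 turned to 0.0082 with edgeR and 0.0013 with DESeq2, and to 0.17 and 0.15 on 5 libraries.

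With 1 library left out, log2 changes ran from 1.73 to 1.96 for Cx3cr1, 1.81 to 1.91 for Ccr1, −0.26 to 0.18 for Ccr2, 4.41 to 6.58 for Ccr6, 0.72 to 0.87 for Ccrl2, −1.58 to −0.77 for Cxcr4 and −0.20 to 0.15 for Ackr3. Receptors higher ran from 2 (without either control replicate, where the lone control is assumed to vary like the IRKO group) to 3, receptors lower from 0 to 1 (without IRKO replicate 4), and ligands lower from 1 (without control replicate 2) to 2. With a replicate block, which uses the numbers 1 and 2 shared by the groups, Ccrl2 had 0.79 (limma adjusted p = 0.147), Cxcr4 −1.59 (adjusted p = 0.0158), so 1 receptor was lower, and Ackr3 0.078. Deviations of same-numbered libraries correlated at −0.082 and 0.079, so the numbers were not taken as pairs. For the other changes named here the cause was not tested.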

Other observations

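IRKO replicate 3 lay at least 8-fold below each of the other IRKO libraries for 5 of 14698 tested genes, a rule set after the Ccr6 values were seen: S100a5, Gm14296, Ms4a15, Ccr6 and Omp. By the same rule, 6 genes were low in IRKO replicate 1, 3 in replicate 2 and 0 in replicate 4. Omp, the olfactory marker protein, had 238, 169, 7.77 and 172 normalized counts in IRKO replicates 1 to 4, against 5.62 and 164 in control replicates 1 and 2. S100a5, a calcium-binding protein, had 501, 372, 0.972 and 216, against 1.12 and 208 in control replicates 1 and 2. For Omp, S100a5 and Ms4a15, control replicate 1 was low together with IRKO replicate 3, whereas for Ccr6 both controls were low. Ms4a15 had 1.12 and 52.3 in control replicates 1 and 2. Gm14296 had 34.9 and 53.3 there, against 0 in IRKO replicate 3.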
